A study of Mus musculus with 24 samples.

Results

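Transcripts of 10 genes that mark adipocytes were followed in RNA of *quadriceps femoris* muscle of 24 mice, among 18669 genes in the count table. They are Adipoq, Plin1, Cidec, Cfd, Lep, Retn, Cidea, Ucp1, Fabp4 and Pparg, found by their mouse symbols, and all 10 passed the filter on low counts. They were chosen by their CPM in single libraries, because the 2 libraries of a group can differ manyfold, above all in Hsf1-/- mice given HSP990, so the spread between 2 mice of a group is described below and not tested.

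The mice were wild type, R6/2 (transgenic for exon 1 of mutant human HTT, a model of Huntington's disease) or Hsf1-/- (lacking heat shock factor 1), labelled with the strain background CBA x C57BL/6 F1. Each genotype had 4 groups of 2 mice. In the HS experiment, mice under isoflurane were held at 41.5 °C for 15 min (HS) or at 36.9 °C for 21 min (control). In the HSP990 experiment, mice received the HSP90 inhibitor HSP990 at 12 mg/kg or vehicle. Muscle was taken 4 h later. Wild type and R6/2 mice were 12 weeks old, and Hsf1-/- mice were 10 weeks old in the HS experiment and 8 weeks old in the HSP990 experiment. Age therefore cannot be told apart from the Hsf1-/- genotype, and both the R6/2 transgene and the Hsf1 deletion are present in all cells of the mouse, adipocytes included. Library totals ranged from 22450177 to 46599238 counts. Y-linked transcripts summed to at most 4 counts in wild type and R6/2 mice of the HS experiment and to 3916 or more in each of the other libraries, so sex and experiment cannot be told apart in these 2 genotypes.

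White adipocytes store triglyceride in a large lipid droplet and secrete hormones. Brown adipocytes hold many small droplets and burn fatty acids in mitochondria uncoupled by UCP1. Fat lies around and between muscles, so a muscle sample can carry adipocytes beside its fibres, vessels and connective tissue. In RNA of whole tissue, fewer adipocytes and less RNA per adipocyte cannot be told apart.

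Each gene lies at a single place in the mm9 genome, and no second copy of any of the 10 transcripts was found. Adipoq (NCBI gene 11450) spans chr16:23146609-23158101 on the plus strand, Plin1 (103968) chr7:86866050-86877662 on the minus strand and Ucp1 (22227) chr8:85814247-85822355 on the plus strand. Lep (16846) spans chr6:29010220-29023877 on the plus strand. The exons of Cidea overlap no annotated gene on its own strand, but its locus overlaps B430212C06Rik on the other strand, and the sources used here do not say whether counting used strand.

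The 250 bases before the annotated start of 3 genes are shown because Adipoq followed the common pattern of the members most closely, Ucp1 varied most and Lep followed it least. The windows were taken from RefSeq (GRCm38.p6), 5′ to 3′ on the gene's strand, for Adipoq at chr16:23146286-23146535, for Ucp1 at chr8:83290098-83290347 and for Lep at chr6:29059971-29060220, all on the plus strand. Capitals mark the CCAAT box, the core of a TATA box (TATAA) and the half-site of nuclear receptors such as PPAR gamma (AGGTCA), each searched on both strands.
Adipoq: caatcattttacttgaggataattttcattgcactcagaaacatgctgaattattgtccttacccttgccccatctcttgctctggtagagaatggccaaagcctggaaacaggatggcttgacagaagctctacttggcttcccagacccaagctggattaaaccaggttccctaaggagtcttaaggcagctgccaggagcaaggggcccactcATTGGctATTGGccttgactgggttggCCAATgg
Ucp1: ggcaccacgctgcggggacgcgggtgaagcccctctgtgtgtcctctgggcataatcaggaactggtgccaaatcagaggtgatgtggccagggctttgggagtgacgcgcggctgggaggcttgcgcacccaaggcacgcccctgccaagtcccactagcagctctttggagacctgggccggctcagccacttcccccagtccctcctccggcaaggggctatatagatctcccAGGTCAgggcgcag
Lep: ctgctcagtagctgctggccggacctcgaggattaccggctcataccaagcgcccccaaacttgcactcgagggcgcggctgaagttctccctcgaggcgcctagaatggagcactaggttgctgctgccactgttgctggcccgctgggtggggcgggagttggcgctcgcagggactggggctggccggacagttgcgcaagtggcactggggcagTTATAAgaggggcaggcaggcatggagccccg

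The Adipoq window held CCAAT 3 times, the Ucp1 window held AGGTCA once and the Lep window held TATAA on both strands in overlapping letters. Among the 8 members with a RefSeq window, AGGTCA was found in 2 (Ucp1 and Pparg), CCAAT in 2 (Adipoq and Pparg) and TATAA in 2 (Lep and Pparg). Of 32851 promoter windows of the same length, 14.0% held AGGTCA, 33.8% CCAAT and 22.8% TATAA. The windows of the members thus shared no motif of these 3.

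Levels are given in CPM, counts scaled to library size with TMM factors, and between genes only per kilobase of exon. By the median over 24 libraries, Fabp4, a fatty acid carrier also found in capillary endothelium, stood at 558 CPM per kilobase. Cfd (complement factor D, or adipsin) followed at 93.2 CPM per kilobase, Adipoq (adiponectin) at 21.5 and the lipid droplet proteins Cidec and Plin1 at 17.6 and 10.0. The lowest were Cidea (a droplet protein abundant in brown fat) at 4.57, the hormone Retn (resistin) at 3.40, Ucp1 at 3.02, Pparg (the nuclear receptor that directs adipocyte formation) at 2.94 and Lep (leptin) at 1.63 CPM per kilobase. In Hsf1-/- HSP990 replicate 1 the order was different, with Ucp1 at 301 and Cidea at 148 CPM per kilobase, above Cidec at 97.5, Plin1 at 94.3 and Adipoq at 89.4.

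**Figure D1:**
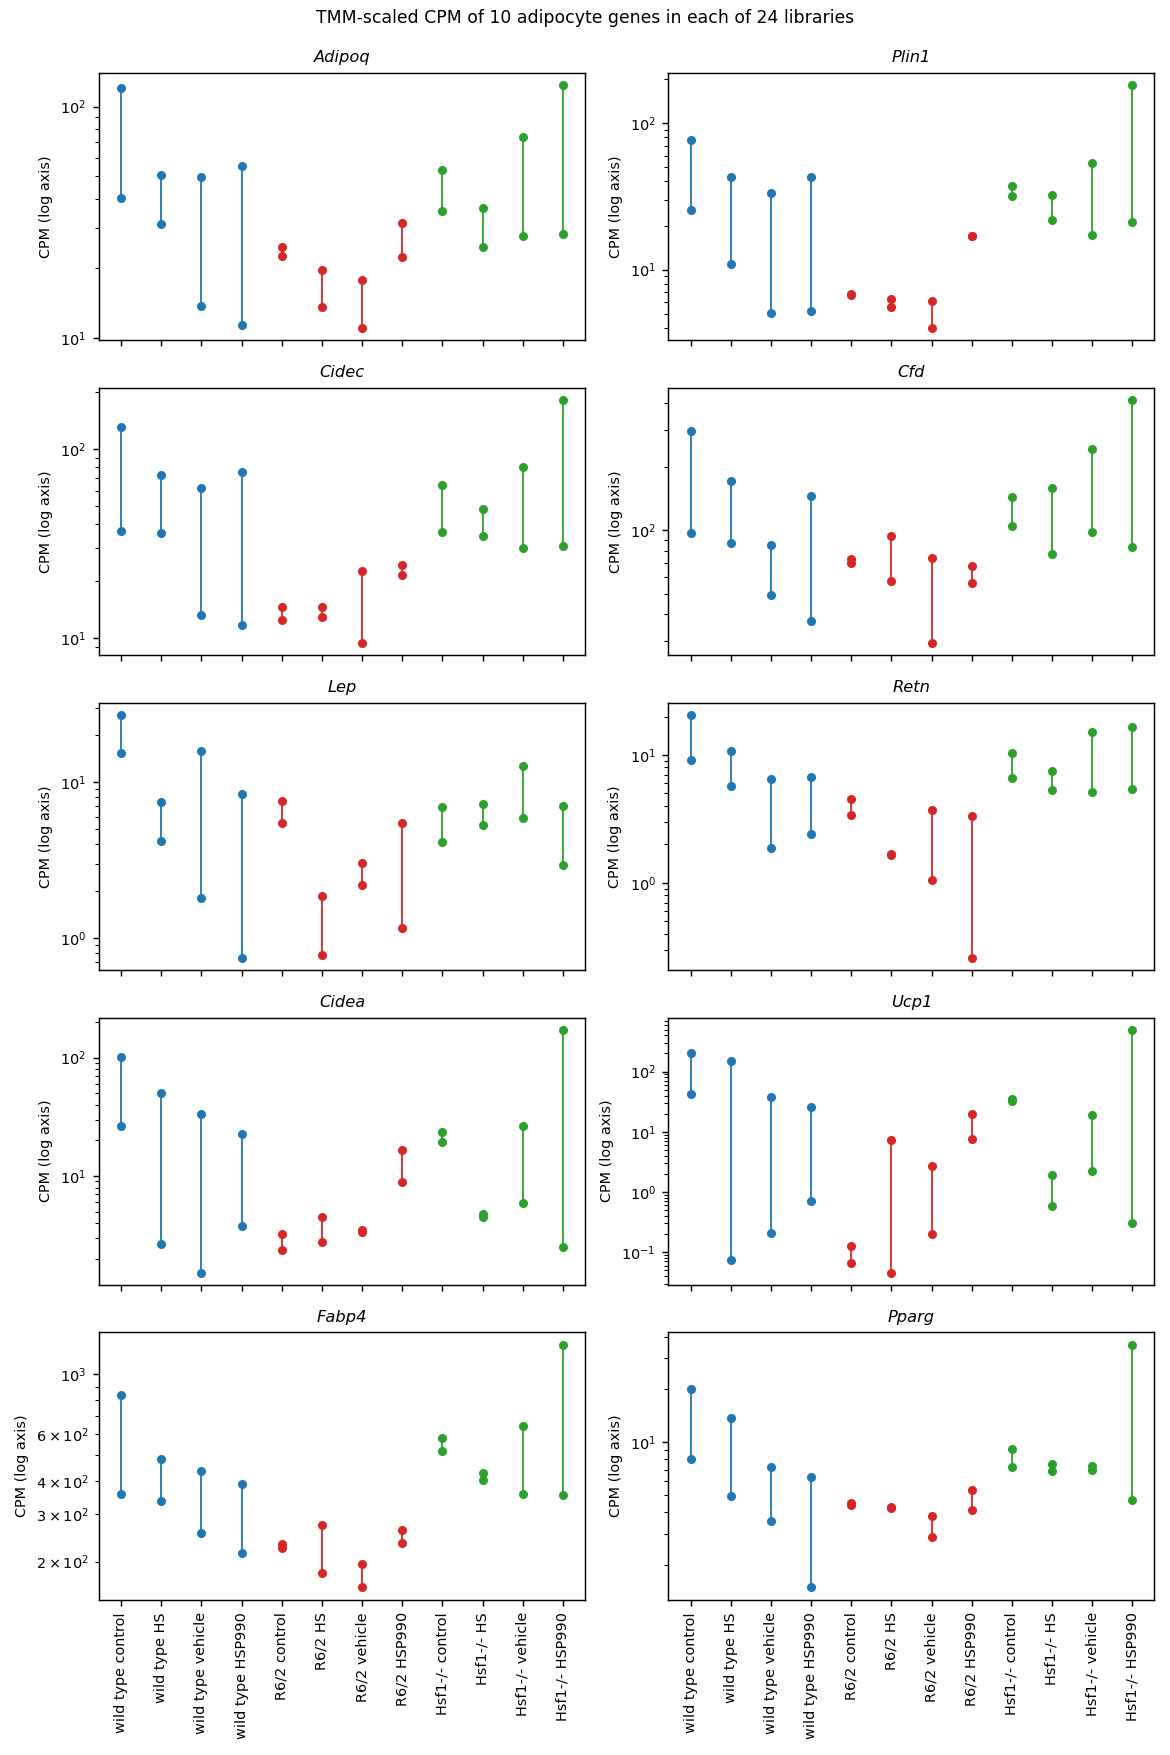
TMM-scaled CPM (log axis) of each adipocyte gene in the 2 mice of each group, joined by a line, with wild type in blue, R6/2 in red and Hsf1-/- in green. Ucp1 ran from 0.0458 to 495 CPM, and the R6/2 mice lay low for most genes.

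Adiponectin, secreted by fat, was present in every library. In wild type mice Adipoq stood at 121 and 40.1 CPM in control, 31.2 and 50.5 in HS, 13.7 and 49.4 in vehicle and 11.4 and 55.6 in HSP990. R6/2 mice had 22.7 and 24.8 CPM in control, 13.6 and 19.7 in HS, 17.8 and 11.0 in vehicle and 22.4 and 31.3 in HSP990. Hsf1-/- mice had 53.1 and 35.5 CPM in control, 24.7 and 36.5 in HS, 27.5 and 73.7 in vehicle and 123 and 28.2 in HSP990. The 8 R6/2 libraries lay between 11.0 and 31.3 CPM, at the lower end of the wild type range of 11.4 to 121.

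By group mean of Adipoq, wild type control was highest with 80.4 ± 56.9 CPM (SD, n = 2), followed by Hsf1-/- HSP990 with 75.8 ± 67.3, Hsf1-/- vehicle with 50.6 ± 32.6, Hsf1-/- control with 44.3 ± 12.4 and wild type HS with 40.9 ± 13.7. Wild type HSP990 (33.5 ± 31.3), wild type vehicle (31.6 ± 25.2) and Hsf1-/- HS (30.6 ± 8.35) came next. The 4 R6/2 groups were last, with 26.8 ± 6.30 in HSP990, 23.7 ± 1.52 in control, 16.7 ± 4.34 in HS and 14.4 ± 4.75 in vehicle. Of the neighbours in this order, only R6/2 control and R6/2 HS had libraries that did not overlap.

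Ucp1, which uncouples the mitochondria of brown fat, was the most variable member. Wild type libraries had 200.4 and 42.4 CPM in control, 0.0746 and 150.0 in HS, 0.207 and 37.6 in vehicle and 0.699 and 25.8 in HSP990. In R6/2 mice its level was 0.0661 and 0.127 CPM in control, 0.0458 and 7.21 in HS, 0.204 and 2.71 in vehicle and 19.5 and 7.51 in HSP990. Hsf1-/- libraries had 35.1 and 32.7 CPM in control, 1.95 and 0.596 in HS, 2.21 and 18.8 in vehicle and 495 and 0.307 in HSP990. Hsf1-/- HSP990 thus held both the highest library of all and a library under 1 CPM. The lowest values rested on 2 counts (R6/2 HS replicate 1 and wild type HS replicate 1) and 3 counts (R6/2 control replicate 1).

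Ucp1 was under 1 CPM in 9 of 24 libraries, in which Adipoq ranged from 11.4 to 36.5 CPM. In no library were Adipoq, Plin1, Cidec, Cfd, Cidea, Fabp4 or Pparg under 1 CPM, while Lep was in 2 and Retn in 1. Adipocyte transcripts were thus present in every muscle sample, and Ucp1 was near 0 in some of them.

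Within Hsf1-/- HSP990, the pair of mice that led to the choice of these genes, all 10 members differed at least 2-fold between the 2 mice on the scale of log2(CPM + 0.5), beside 4.80% of all genes tested. Replicate 1 was the higher in 9 of 10. Ucp1 stood at 495 against 0.307 CPM (22018 against 7 counts), Cidea at 172 against 2.54, Plin1 at 181 against 21.2 and Pparg at 36.0 against 4.73. Cidec was 181 against 30.6 CPM, Cfd 414 against 83.2, Fabp4 1293 against 354 and Retn 16.7 against 5.43. Lep went the other way, with 2.95 CPM in replicate 1 and 7.05 in replicate 2. Leptin is made mainly by white adipocytes, and whether this bears on its direction here was not tested.

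The same pair differed in other genes of fat. Of 39 other adipocyte genes, 24 were at least 2-fold higher in replicate 1 and 0 lower. Fasn, which makes fatty acids, stood at 4331 against 328 CPM. Of 20 tested genes of heat production and brown fat, 9 were at least 2-fold higher and 0 lower. Elovl3 (a fatty acid elongase induced in brown fat) stood at 30.8 against 0.0876 CPM, the potassium channel gene Kcnk3 at 155 against 0.788, the proton channel gene Otop1 at 63.7 against 2.19 and the deiodinase gene Dio2 at 118 against 5.61. No gene of the adipocyte progenitor (8 genes), endothelial (12) or macrophage (12) lists differed 2-fold. Muscle fibre genes (20) had a median difference of -0.17 (log2, replicate 1 minus replicate 2), with 2 of 20 at least 2-fold lower in replicate 1. All 6 tendon and cartilage genes were at least 2-fold lower in that mouse. The 8 Schwann cell genes were all lower in it (median -0.84, 2 of them at least 2-fold), and the 4 tested erythroid genes were all higher (median 1.24, 2 of them at least 2-fold). The part of these markers in the difference was not tested.

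Other groups also showed this spread, which is again only described. Among wild type mice all 10 members were higher in the same mouse of each group. At least 2-fold differences were seen in 9 of 10 members in wild type control (beside 1.98% of all genes tested), 5 in wild type HS (1.93%), 7 in wild type vehicle (2.30%) and 9 in wild type HSP990 (2.76%). In R6/2 mice the counts were 0 of 10 in control (3.08%), 1 in HS (3.62%), 4 in vehicle (3.38%) and 3 in HSP990 (2.28%). In Hsf1-/- mice they were 0 of 10 in control (2.25%), 2 in HS (2.14%) and 8 in vehicle (3.20%). More members differed in the 4 wild type groups and in Hsf1-/- vehicle than in any R6/2 group or in Hsf1-/- control and HS. Whether the amount of fat taken with the muscle differed between mice was not tested.

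**Figure D2:**
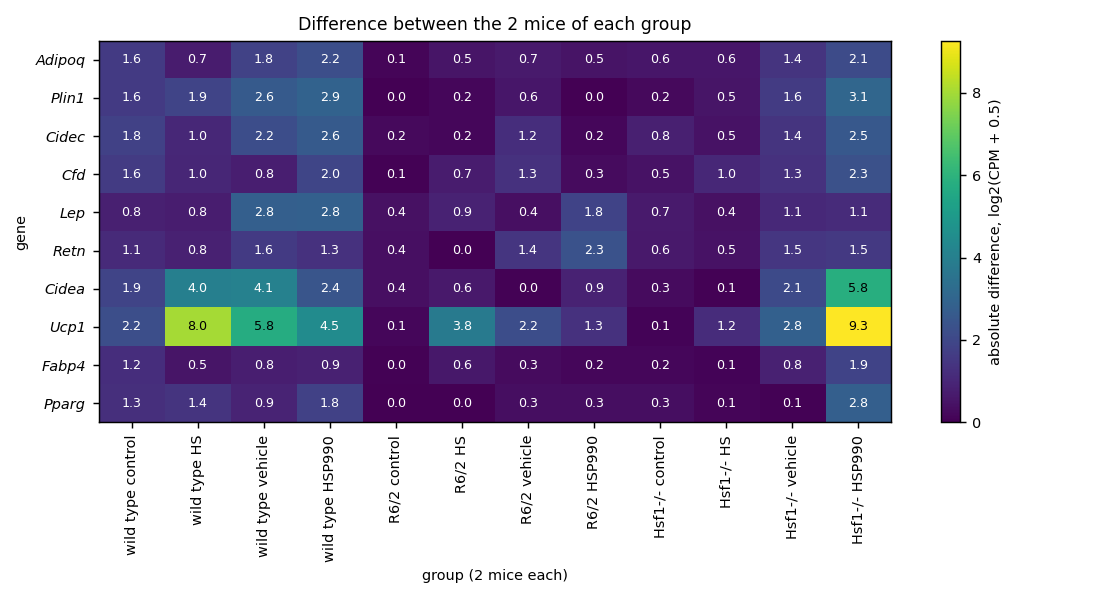
Absolute difference between the 2 mice of each group in log2(CPM + 0.5), with genes in rows and groups in columns. Ucp1 differed by more than 1 in 10 of 12 groups and Fabp4 in 2, and the largest difference was that of Ucp1 in Hsf1-/- HSP990.

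Ucp1 and Cidea rose and fell together across libraries, with Pearson's r = 0.97 over 24 libraries (Spearman's rho 0.93) on the scale of log2(CPM + 0.5), 0.96 without the 2 libraries farthest from the median of Cidea and 0.96 within groups. Adipoq was closest to Cidec (r = 0.96, rho 0.96). Ucp1 was less closely tied to Adipoq (r = 0.78, rho 0.71, and r = 0.66 without the 2 farthest libraries), and Lep least to Ucp1 (r = 0.42, rho 0.40). These values are a description, since both genes of a pair share library, scaling and mouse.

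**Figure D3:**
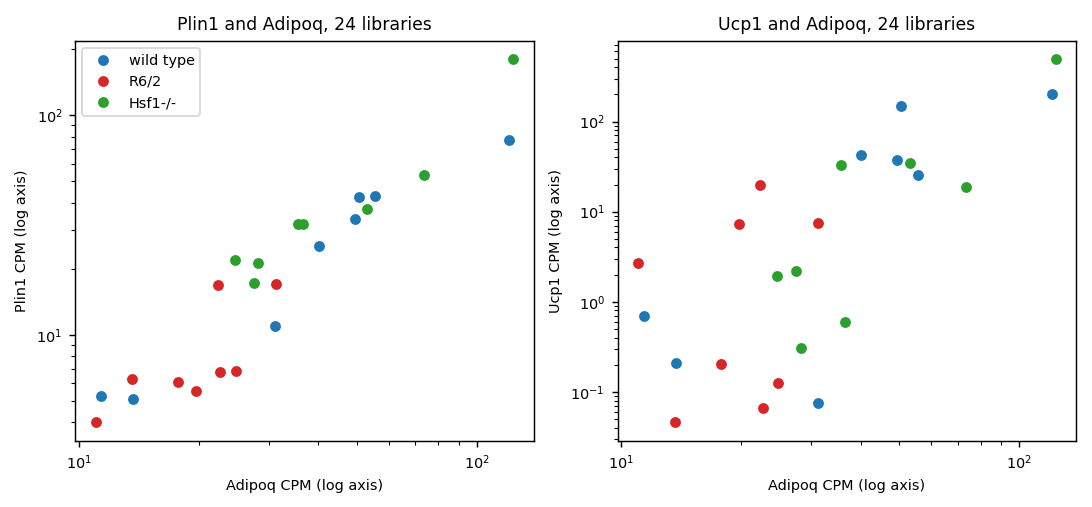
Plin1 (left) and Ucp1 (right) against Adipoq in each of 24 libraries, all in CPM on log axes, with wild type in blue, R6/2 in red and Hsf1-/- in green. Plin1 tracked Adipoq (r = 0.94), while Ucp1 spread over several orders of magnitude at similar Adipoq (r = 0.78).

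Against the mean of the standardized log2 values of the 10 members, each of which also enters that mean, r was highest for Adipoq (0.98), Cidec (0.97) and Plin1 (0.96) and lowest for Ucp1 (0.82) and Lep (0.70). Among 11119 genes with a mean of at least 1 CPM, the 10 other genes most like this profile were Pygl (r = 0.97 over 24 libraries), Tkt (0.97), Cdo1 (0.97), Slc25a1 (0.97), Klhdc7a (0.96), Adora1 (0.96), Lgals12 (0.95), Cd1d1 (0.94), Prkar2b (0.94) and Acp5 (0.94). Pygl encodes liver glycogen phosphorylase, Tkt transketolase, Cdo1 cysteine dioxygenase, Slc25a1 the mitochondrial citrate carrier and Adora1 the adenosine A1 receptor. Without the 2 libraries farthest from the median of the profile (Hsf1-/- HSP990 replicate 1 and wild type control replicate 1), r of these 10 genes was 0.91 to 0.96. Of the 30 genes most alike, 12 were on the list of other adipocyte genes, Lgals12 and Fasn among them, and 3 on that of thermogenic genes (Slc36a2, Nrg4 and Otop1).

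The genotypes were compared over all 4 treatments, 8 R6/2 mice against 8 wild type mice. The genes were chosen by CPM in single libraries, these included, for a spread that was larger in wild type than in R6/2 groups. This contrast is therefore not independent of the choice of genes. The members were lower in R6/2 mice. All 10 had a negative log2 fold change, with a median of -1.55 beside 0.03 over all genes tested, and 8 of 10 passed the test (adjusted p under 0.05). Over all genes 40.9% were called, 19.8% as lower.

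Storage and droplet genes fell. Plin1, whose product coats the droplet and guards it from lipases, ranged from 3.99 to 17.0 CPM in R6/2 mice (median 6.51) and from 5.09 to 77.1 in wild type mice (median 29.5), with a log2 fold change of -1.88 ± 0.51 (SE) and adjusted p = 0.0068 (edgeR's quasi-likelihood test, Benjamini-Hochberg adjustment). Cidec, which enlarges droplets, ranged from 9.43 to 24.4 CPM in R6/2 mice (median 14.7) against 11.7 to 131 (median 49.4), a log2 fold change of -1.69 ± 0.45 (edgeR, adjusted p = 0.0064). Fabp4 ranged from 160.2 to 273 CPM against 215 to 838, a log2 fold change of -0.87 ± 0.24 (edgeR, adjusted p = 0.0086). The ranges of the 2 genotypes overlapped for each of these genes.

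Hormones fell as well. Adipoq had a median of 21.0 CPM in R6/2 and 44.8 in wild type mice, with a log2 fold change of -1.13 ± 0.38 (edgeR, adjusted p = 0.025). Lep ranged from 0.778 to 7.55 CPM in R6/2 mice (median 2.60) and from 0.748 to 26.9 in wild type mice (median 7.91), a log2 fold change of -1.52 ± 0.47 (edgeR, adjusted p = 0.016). Retn had medians of 2.51 and 6.61 CPM, a log2 fold change of -1.59 ± 0.44 (edgeR, adjusted p = 0.0086). Cfd did not pass, with medians of 69.0 and 91.9 CPM and a log2 fold change of -0.79 ± 0.37 (edgeR, adjusted p = 0.098).

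Of the genes tied to brown fat, Ucp1 ranged from 0.0458 to 19.5 CPM in R6/2 mice (median 1.46) and from 0.0746 to 200.4 in wild type mice (median 31.7). Its log2 fold change was -4.60 ± 1.37 (edgeR, adjusted p = 0.012). Cidea had medians of 3.45 and 24.7 CPM and a log2 fold change of -2.45 ± 0.74 (edgeR, adjusted p = 0.014). The regulator Pparg had medians of 4.26 and 6.81 CPM and did not pass, with a log2 fold change of -0.81 ± 0.36 (edgeR, adjusted p = 0.084).

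Each experiment was then taken alone, which is likewise not independent of the choice of genes. In the HS experiment, 8 of 10 members were called as lower (beside 13.0% of all genes tested). Log2 fold changes were -7.33 ± 2.19 for Ucp1 and -2.54 ± 0.73 for Plin1. In the HSP990 experiment, 0 of 10 passed by edgeR (beside 13.8%), 0 at an unadjusted p under 0.05 and 0 by DESeq2, and the log2 fold changes ran from -1.87 for Ucp1 to -0.23 for Pparg. The difference between the experiments was called for 0 of 10 members by edgeR (beside 0.00727% of all genes), with 0 at an unadjusted p under 0.05 and 0 by DESeq2. Scaled by library size only, which moved the median change over all genes to 0.61 (log2), 4 of 10 members over both experiments passed (Plin1, Cidec, Cidea and Ucp1) and all 10 stayed negative. Single wild type mice also moved the count, to 4 when HSP990 replicate 2 or vehicle replicate 2 was left out and to 5 when HS replicate 2 was.

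**Figure D4:**
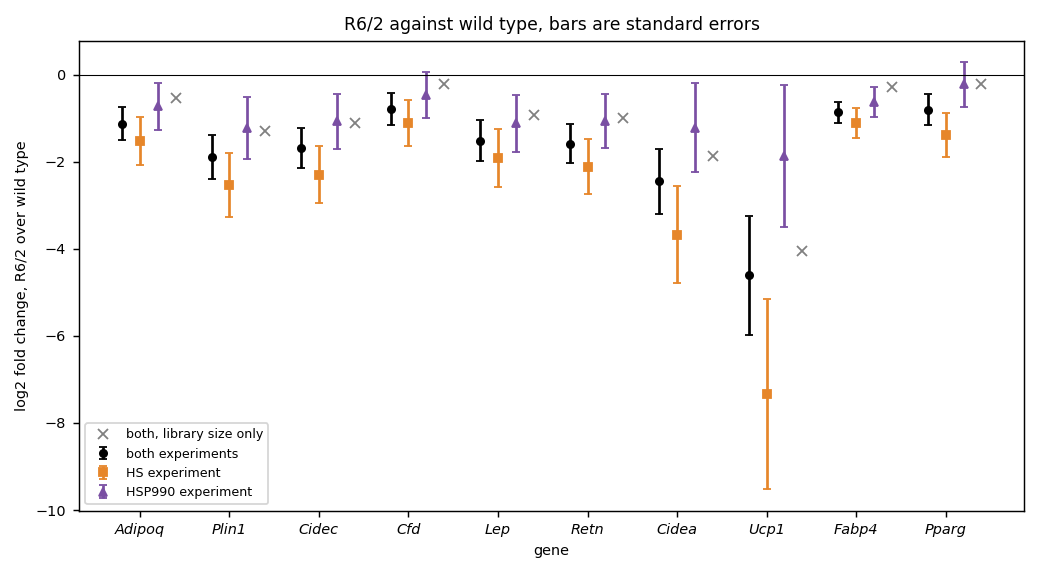
Log2 fold change of R6/2 over wild type for each gene, over both experiments (circles), in the HS experiment (squares) and in the HSP990 experiment (triangles), with standard errors, and over both experiments scaled by library size only (crosses). Values lay below 0 throughout, from -0.23 to -7.33 under TMM scaling.

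In untreated mice (control and vehicle together, 4 against 4), 5 of 10 members were called as lower in R6/2 mice. Over all genes 30.5% were called, 15.4% as lower. All 10 members had a negative log2 fold change, from -7.01 to -0.92. These libraries also entered the choice of genes, so this contrast is not independent of it. Ucp1 had a log2 fold change of -7.01 ± 2.20 (edgeR, adjusted p = 0.023), Cidea -3.42 ± 1.09 (0.025), Plin1 -2.43 ± 0.73 (0.019), Cidec -1.93 ± 0.64 (0.031) and Fabp4 -1.17 ± 0.35 (0.016). Adipoq at -1.45 ± 0.54 missed the threshold (edgeR, adjusted p = 0.053), as did Lep at -1.73 ± 0.65 (0.055). This count rested on single mice: it was 0 when R6/2 control replicate 1, R6/2 vehicle replicate 2, wild type control replicate 1 or wild type vehicle replicate 2 was left out, 1 when R6/2 control replicate 2 was and 3 when R6/2 vehicle replicate 1 was. It was also 3 when scaled by library size only and 8 in a fit of the 4 groups compared.

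Many genes on the other lists of fat genes were lower too. Of 39 other adipocyte genes, 26 were called as lower and 1 as higher in R6/2 mice over 4 treatments, beside 19.8% of all genes called as lower. Their median log2 fold change was -1.16. Within groups, r with the member profile was 0.96 for Lgals12 and 0.91 for Fasn, but -0.08 for Slc2a4, -0.06 for Mlxipl and 0.17 for Car3. The part of muscle fibres in the falls on this list was not tested. The largest falls were those of Fasn (-3.20), the elongase gene Elovl6 (-2.92), Car3 (carbonic anhydrase 3, also abundant in muscle fibres; -2.85), the desaturase gene Scd1 (-2.65) and Nat8l (-2.40). Angptl4, an inhibitor of lipoprotein lipase, was higher (1.97). Of 20 tested thermogenic genes, 9 were called as lower and 1 (Zic1, 0.87) as higher. Elovl3 stood at -4.01, Nrg4 at -2.49, Kcnk3 at -2.35, Otop1 at -2.20 and Slc36a2 at -1.65. Both splits changed with the scaling: by library size only, 18 other adipocyte genes were lower and 9 higher (median -0.58), and 5 thermogenic genes were lower and 4 higher (median -0.12). The count of lower thermogenic genes was 4 when wild type HSP990 replicate 2 was left out, and 5 when wild type HS replicate 2 or vehicle replicate 2 was.

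Muscle fibre genes moved as well, and their part in the result was not tested. Of 20, 19 were called as lower in R6/2 mice, with a median log2 fold change of -1.56 (over all genes 40.9% were called, 19.8% as lower). Their summed level was 90260 to 157500 CPM in the R6/2 libraries and 333700 to 401800 in the wild type libraries. The defining fibre gene Acta1 (skeletal actin) had a log2 fold change of -2.35. Of 8 adipocyte progenitor genes 0 were called as lower and 1 (Dlk1, 1.11) as higher. Their summed level of 405 to 656 CPM in R6/2 libraries overlapped the 465 to 623 CPM of wild type libraries. Endothelial genes, of interest for Fabp4, had 0 of 12 called in either direction over 4 treatments, with sums of 575 to 958 CPM in R6/2 and 643 to 879 CPM in wild type libraries.

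A ratio to Adipoq in the same library does not depend on scaling. It was chosen after the values were seen and is given without a test. Plin1 stood at 0.276 to 0.755 times Adipoq in R6/2 libraries (median 0.352), at 0.351 to 0.843 in wild type libraries (0.636) and at 0.628 to 1.46 in Hsf1-/- libraries (0.815). Cidec stood at 0.551 to 1.27 times Adipoq in R6/2 libraries (median 0.818) and at 0.922 to 1.44 in wild type libraries (1.12). For Plin1, 4 of 8 R6/2 libraries lay below every wild type library, and for Cidec 5 of 8. Fabp4 had median ratios of 10.8 in R6/2 and 9.24 in wild type libraries, and Pparg 0.204 and 0.163.

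**Figure D5:**
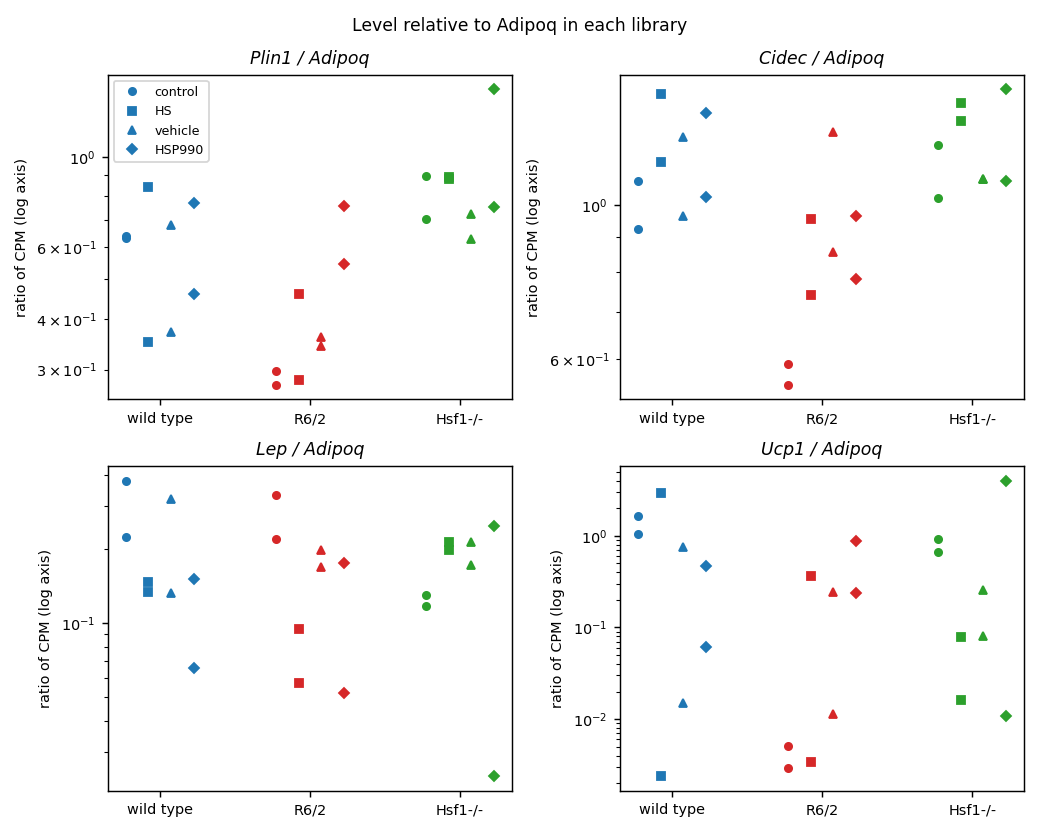
Ratio of Plin1, Cidec, Lep and Ucp1 to Adipoq in each library (log axes), by genotype, with circles for control, squares for HS, triangles for vehicle and diamonds for HSP990. The Plin1 ratio had medians of 0.636 in wild type, 0.352 in R6/2 and 0.815 in Hsf1-/- libraries, and the lowest Lep ratio, 0.0239, was that of Hsf1-/- HSP990 replicate 1.

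The response to heat shock was examined in each genotype. No member was called 4 h after HS in any genotype by edgeR. All 10 were lower after HS in wild type mice by the fitted log2 fold change (-1.87 to -0.54, median -0.78, beside 2.06% of all genes called), with 0 of 10 at an unadjusted p under 0.05 and 0 by DESeq2. In R6/2 mice 0 of 10 passed (beside 0.0436% of all genes), 1 (Lep) had an unadjusted p under 0.05 and 0 passed by DESeq2. In Hsf1-/- mice 0 of 10 passed (beside 0.00727%), with 0 at an unadjusted p under 0.05 and 0 by DESeq2. The HS response was not called as different from wild type in R6/2 (0 of 10 by edgeR, beside 0.0727%) or in Hsf1-/- mice (0 of 10, beside 0.160%), with 0 at an unadjusted p under 0.05 and 0 by DESeq2 in both.

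Lep, the satiety hormone, was lower in both HS mice than in both controls in wild type and in R6/2 mice. It stood at 26.9 and 15.3 CPM in wild type control against 4.18 and 7.40 in HS, and at 7.55 and 5.47 CPM in R6/2 control against 0.778 and 1.87 in HS. The log2 fold changes were -1.87 ± 0.92 (edgeR, adjusted p = 0.46) and -2.32 ± 0.98 (adjusted p = 0.54). In Hsf1-/- mice Lep stood at 6.93 and 4.16 CPM in control and 5.29 and 7.27 in HS, with a log2 fold change of 0.18 ± 0.92. The difference of the HS response between Hsf1-/- and wild type mice was 2.04 ± 1.30 for Lep (edgeR, adjusted p = 1). In a fit of the wild type control and HS libraries with only the groups compared, the fall of Lep passed (edgeR, -1.86 ± 0.33, adjusted p = 0.019). The share of all genes called in that fit, or with libraries that did not overlap, is not given here. In the HSP990 experiment, Lep stood at 1.82 and 15.8 CPM in wild type vehicle mice, the first below both wild type HS mice. In R6/2 vehicle mice it stood at 3.02 and 2.19 CPM, above both R6/2 HS mice.

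Ucp1 was low in both Hsf1-/- HS mice, at 1.95 and 0.596 CPM, and was 35.1 and 32.7 CPM in both controls. Cidea stood at 4.75 and 4.53 CPM in HS and 19.4 and 23.5 in control. Neither passed in the fit that pools the spread of all 12 groups (edgeR, adjusted p = 0.69 and 0.78). Both passed in a fit of only the groups compared (edgeR, adjusted p = 0.01 for Ucp1 and 0.0097 for Cidea). Standard errors there were 0.40 and 0.17, against 2.7 and 1.5 in the pooled fit. The share of all genes called in the smaller fit is not given here. In the HSP990 experiment, Hsf1-/- vehicle replicate 1 was also low, at 2.21 CPM for Ucp1 and 5.9 for Cidea. Vehicle replicate 2 stood at 18.8 and 26.3 CPM. For Ucp1 in the other genotypes, 1 HS library lay below both controls, and the second lay between them in wild type and above them in R6/2 mice.

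HSP990 likewise gave no call among the members. Wild type log2 fold changes ran from -0.92 (Lep) to 0.45 (Cfd), with 0 of 10 called by edgeR (beside 1.85% of all genes). In R6/2 mice they ran from -0.38 (Retn) to 3.25 (Ucp1), with 0 of 10 called by edgeR (beside 1.43%). The difference between these responses was called for 0 of 10 members by edgeR (beside 0.00% of all genes). In each of these 3 comparisons 0 members had an unadjusted p under 0.05 and 0 passed by DESeq2.

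In R6/2 mice the 2 HSP990 libraries did not overlap the vehicle libraries for Plin1, at 16.9 and 17.0 CPM against 6.09 and 3.99 (log2 fold change 1.74 ± 1.02). They did not overlap for Ucp1, at 19.5 and 7.51 against 0.204 and 2.71 CPM, or for Cidea, at 16.6 and 8.84 against 3.51 and 3.40 CPM. The same held for Adipoq (22.4 and 31.3 against 17.8 and 11.0 CPM), Fabp4 (235 and 263 against 195.5 and 160.2) and Pparg (4.13 and 5.34 against 3.79 and 2.88). Libraries overlapped for Cidec, Cfd, Lep and Retn. The share of all genes without such overlap was not counted, so this is not read as a response of the members. None of them was called, and the smallest adjusted p was 0.67 (edgeR). Retn differed between the 2 HSP990 mice, at 0.258 CPM (10 counts) and 3.36 CPM (161 counts). Among the other adipocyte genes in R6/2 mice, Plin4 (-1.40) and Agt (-1.17) fell after HSP990. In wild type mice Plin4 (1.37) rose after HS, as did the thermogenic coactivator gene Ppargc1a (2.05). These genes did not follow the member profile over 24 libraries (r = -0.01 for Plin4, -0.38 for Agt and 0.004 for Ppargc1a). Whether their changes lay in adipocytes or in muscle fibres was not tested.

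Without treatment, Hsf1-/- mice could not be told from wild type mice in any member (0 of 10 by edgeR, 0 at an unadjusted p under 0.05, 0 by DESeq2, beside 0.974% of all genes), with log2 fold changes from -1.34 (Ucp1) to 0.34 (Cfd). Age differed between these genotypes, and Y-linked transcripts did in the HS experiment, so neither can be told apart from genotype. Vehicle was compared with control as the 2 untreated states. All 10 members were lower in wild type vehicle mice (-2.68 to -0.79, median -1.38) and 0 of 10 passed by edgeR (beside 0.240% of all genes), 0 at an unadjusted p under 0.05 and 0 by DESeq2. In R6/2 mice 0 of 10 passed (beside 0.0654%), with 0 at an unadjusted p under 0.05 and 0 by DESeq2, and log2 fold changes ran from -1.32 (Lep) to 3.85 (Ucp1).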

How the data were processed

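Muscle RNA of 24 mice in 12 groups of 2 was sequenced. According to the study's methods, RNA was made into strand-specific libraries and paired 40-base reads were mapped to mm9 with Bowtie. The counting program and annotation are not given in the sources used here. The authors deposited raw read counts per NCBI gene ID without normalization, and 18594 of 18669 IDs were matched to symbols.

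A gene was tested if 10 or more libraries held 2 or more of its counts (13754 genes). Counts were scaled with TMM and fitted as 12 groups with edgeR 4.0.16 (limma 3.58.1, R 4.3.3) by quasi-likelihood tests (12 residual degrees of freedom), with Benjamini-Hochberg adjustment over all genes and a threshold of 0.05. The procedure was tested on simulated data. CPM values are TMM-scaled, with 0.5 CPM added before logarithms. Standard errors were worked back from each edgeR test, as the absolute log2 fold change over the square root of its F statistic. The p-values measure the spread between these mice. Between 2 mice, counts differed more than sampling noise (chi-square per degree of freedom 20.3 to 115), so each library counted as 1 sample. No permutation test over samples was run; with 2 mice against 2 it could not pass 0.05. Copies of transcripts were sought with minimap2 2.31-r1302 (divergence at most 0.1 over at least 50%).

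Text names the 10 members, the 10 genes most like their profile, up to 5 called genes of each list with the largest change, and the first genes of lists as markers. Fasn, Elovl3, Kcnk3, Otop1 and Dio2 in the Hsf1-/- HSP990 pair, Angptl4, Zic1, and Dlk1 were named after their values were seen. The members, lists and tests were chosen with earlier results of these data known. Alternatives were RLE factors, library size only, no filter, filterByExpr, only the groups compared, a replicate block, DESeq2 1.42.0 and leaving out each mouse. Each experiment alone, leaving out Hsf1-/- HSP990 replicate 1 from every comparison, and ratios to Adipoq were chosen once values had been seen. Lists of lymphocyte, keratinocyte, erythroid and Schwann cell genes were checked too.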

Additional observations from a re-analysis of the deposited data

How the results depend on the processing

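Over 13 comparisons, the count of members that passed stayed at 0 in every alternative run for 9 of them. In wild type mice after HS it was 1 instead of 0 with only the groups compared, and in Hsf1-/- mice after HS 2 instead of 0. For R6/2 against wild type mice over 4 treatments, 8 members passed, against 4 with library size only, 0 in the HSP990 experiment alone, 8 in the HS experiment alone and 4 to 10 when leaving out 1 mouse. In untreated mice 5 passed, against 3 with library size only, 8 with only the groups compared and 0 to 7 when leaving out 1 mouse. Leaving out Hsf1-/- HSP990 replicate 1, which enters the pooled spread, gave 9 and 7. No sign of a member's log2 fold change reversed in these 2 comparisons under any alternative. Library size only leaves the shift of all genes in R6/2 mice in place; for other changes of count the cause was not tested. The number of cases of 120 (10 members in 12 groups) with at least a 2-fold difference between mice was 58, and 57 to 59 under other scalings.

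Same-numbered mice do not share a source in the labels, and correlations of their deviations were -0.242 to 0.274, so the numbers do not pair them. A fit with the replicate number as a block gave 8 members over 4 treatments, 5 in untreated mice and 0 in each other comparison. The lowest counts of a member were 2 for Ucp1, in wild type HS replicate 1 and R6/2 HS replicate 1, 10 for Retn in R6/2 HSP990 replicate 1 and 15 for Lep in wild type HSP990 replicate 1. The part of depth in the calls was not tested.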

Other observations

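Lists of other cell types were looked at for the tissue. Of 12 macrophage genes, 2 rose in wild type mice after HSP990 (Mrc1, log2 fold change 1.25, and Lyz2, 1.07), beside 1.85% of all genes called. In R6/2 mice after HSP990 (1.43% of all genes called) the scavenger receptor gene Cd163 fell (-1.63). The endothelial gene Gpihbp1 (-1.19), whose product holds lipoprotein lipase on capillaries, fell there too. Of 4 tested erythroid genes, Hbb-b1 (-1.17) and Alas2 (-1.13) were lower in R6/2 than in wild type mice over 4 treatments. Of 8 Schwann cell genes 1 (Mag, 0.50) was higher, and of 6 tendon and cartilage genes 1 (Scx, 0.46). Over all genes 40.9% were called in this comparison, 19.8% as lower, so these few calls are not read as results about the cell types. Keratinocyte genes summed to 1.43 to 3.95 CPM and lymphocyte genes to 0.286 to 4.16 CPM over the 24 libraries.

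G0s2, an inhibitor of the lipase of adipocytes, was on the list of other adipocyte genes and was named after its values were seen. It stood at 124 and 117 CPM in Hsf1-/- HSP990 and at 10.8 and 25.2 CPM in Hsf1-/- vehicle, so it was even between the 2 HSP990 mice that differed in Plin1 and Adipoq. In wild type mice it stood at 101 and 105 CPM after HSP990 and at 18.7 and 37.5 CPM after vehicle, and in R6/2 mice at 34.4 and 49.7 against 20.9 and 4.43 CPM. The HSP990 libraries lay above the vehicle libraries in each genotype. The share of genes with this pattern was not counted. G0s2 was not called in wild type or R6/2 mice. No test of HSP990 is given for Hsf1-/- mice, the group named in the choice of genes. Within groups, its r with the member profile was 0.40.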
